A study of Mus musculus with 3 samples.

Results

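Matriptase, the product of St14, is a serine protease anchored in the membrane of epithelial cells, and its transcript was described here with those of its inhibitors HAI-1 (Spint1) and HAI-2 (Spint2) and of its partner protease prostasin (Prss8) in 4T1 cells, a mouse mammary carcinoma line. All probe sets annotated with 1 of these 4 gene symbols alone were taken, which gave 5 probe sets for 4 of 18193 named genes, with 2 probe sets for Spint2 and 1 for each of the others. The genes were selected on the signals of these same arrays, with earlier results known, so their values are a description. RNA was measured on 3 Affymetrix Mouse Genome 430 2.0 arrays, 1 for each culture condition. The first array held 4T1 cells isolated after 1 week of contact co-culture with MSCs (an abbreviation that commonly stands for mesenchymal stem or stromal cells). The next held 4T1 cells grown for 1 week with medium conditioned by MSCs, and the last held 4T1 cells grown with regular medium, for which the labels give no culture time. All cells are of the same line, and the sources used here name neither the origin of the MSCs nor the way in which the 4T1 cells were isolated.

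With 1 array for each condition there is no replicate error, no test and no p-value, and every difference below compares 2 arrays. A gene with several probe sets was represented by the one with the highest mean signal. A gene was called bright in a comparison when its signal reached 149.3 on either array, and a bright gene with signals at least 2-fold apart was counted as higher or lower. Array medians were 72.5 in co-culture, 71.6 in conditioned medium and 79.8 in regular medium. Of the 22 epithelial marker genes with a probe set, 21 were bright, among them Epcam at 5542.5, 5009.0 and 5196.2 and Krt18 at 21097.3, 19114.9 and 18722.9 in co-culture, conditioned medium and regular medium. The defining transcripts of an epithelial line were thus present on each array.

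Matriptase cleaves and activates the precursor of hepatocyte growth factor, pro-urokinase and the receptor PAR2 at the surface of epithelial cells. Matriptase and prostasin can each promote the activation of the other, and HAI-1 and HAI-2 are membrane-bound proteins with Kunitz domains that block both enzymes. In mouse skin, excess matriptase drives tumour formation unless HAI-1 is raised with it, so the pair is usually described as a balance of protease and inhibitor. HAI-1 and HAI-2 also take part in bringing matriptase to the cell surface.

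St14 was the member with the largest difference between conditions. Its probe set had a signal of 3901.5 in co-culture, 1795.2 in conditioned medium and 1911.4 in regular medium. The co-culture array was high and the other arrays lay close together. The signal in co-culture was 2.04-fold that in regular medium, a log2 difference of 1.03, and 2.17-fold that in conditioned medium, a log2 difference of 1.12. Conditioned medium lay 1.06-fold below regular medium, a log2 difference of -0.09.

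Spint1, which encodes the inhibitor HAI-1, had signals of 1795.6 in co-culture, 1383.0 in conditioned medium and 1419.6 in regular medium. The order of the arrays was as for St14 and the span was narrower. Co-culture was 1.26-fold above regular medium, with a log2 difference of 0.34, and 0.38 above conditioned medium on that scale, and conditioned medium differed from regular medium by -0.04.

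Spint2, which encodes HAI-2, had its brighter probe set at 6632.6 in co-culture, 4783.2 in conditioned medium and 4830.7 in regular medium. The suffix of this probe set (x_at) marks possible cross-hybridisation with other transcripts. Its second probe set (a_at, a suffix for alternative transcripts of 1 gene) had 4386.9, 3911.6 and 3765.1 on the same arrays. Both probe sets were highest in co-culture, by 1.37-fold and 1.17-fold over regular medium, log2 differences of 0.46 and 0.22. Against conditioned medium the differences were 0.47 and 0.17. Between conditioned medium and regular medium they had opposite signs, -0.01 and 0.06, so no direction can be given for Spint2 there.

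Prss8, which encodes prostasin, was the only member with its lowest signal in co-culture. It had 184.5 in co-culture, 226.1 in conditioned medium and 232.6 in regular medium, all little above the brightness limit of 149.3. Co-culture was 1.26-fold below regular medium and 1.23-fold below conditioned medium, with log2 differences of -0.33 and -0.29. Conditioned medium differed from regular medium by -0.04.

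**Figure D1:**
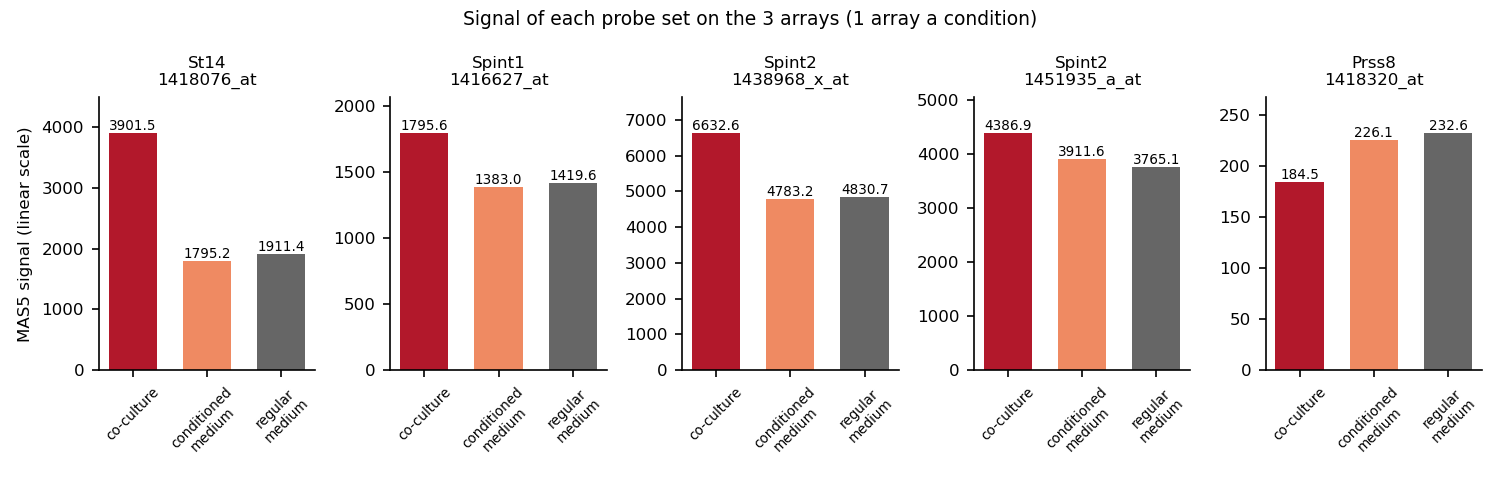
MAS5 signal on a linear axis from 0 for each probe set of St14, Spint1, Spint2 and Prss8, with 1 bar for the single array of each condition and no error bars. The St14 bar in co-culture stands at 3901.5 against 1911.4 in regular medium, the Spint1 and Spint2 bars are also tallest in co-culture, and the Prss8 bar is lowest there at 184.5.

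The members' differences were set beside those of all bright genes. Between co-culture and regular medium 9393 genes were bright, with a median log2 difference of 0.07 and an interquartile range of -0.26 to 0.42. Of the 4 members St14 alone was counted as higher, beside 5.81% of all bright genes, and none was counted as lower, beside 2.76% (8.57% in either direction). Since the members were picked with these values known, nothing follows from that count. St14 lay near the 2-fold limit, with 516 bright genes above it. Spint1 and Spint2 lay inside the bulk of the genes, with 2816 and 2149 bright genes above them. Spint1 was within the interquartile range and Spint2 just above it. Prss8 was below that range, with 1913 bright genes below it.

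Between co-culture and conditioned medium the same array of co-culture cells was used again, so this comparison is no independent repeat. St14 was again the single member counted as higher, beside 5.83% of 9350 bright genes, and none was lower, beside 2.6% (8.43% in either direction). Between conditioned medium and regular medium no member met the 2-fold rule, and 0.415% of 9152 bright genes did, 0.109% as higher and 0.306% as lower. The members' log2 differences there, from -0.09 for St14 to -0.01 for Spint2, all lay within or close to the interquartile range of the bright genes of -0.08 to 0.10.

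**Figure D2:**
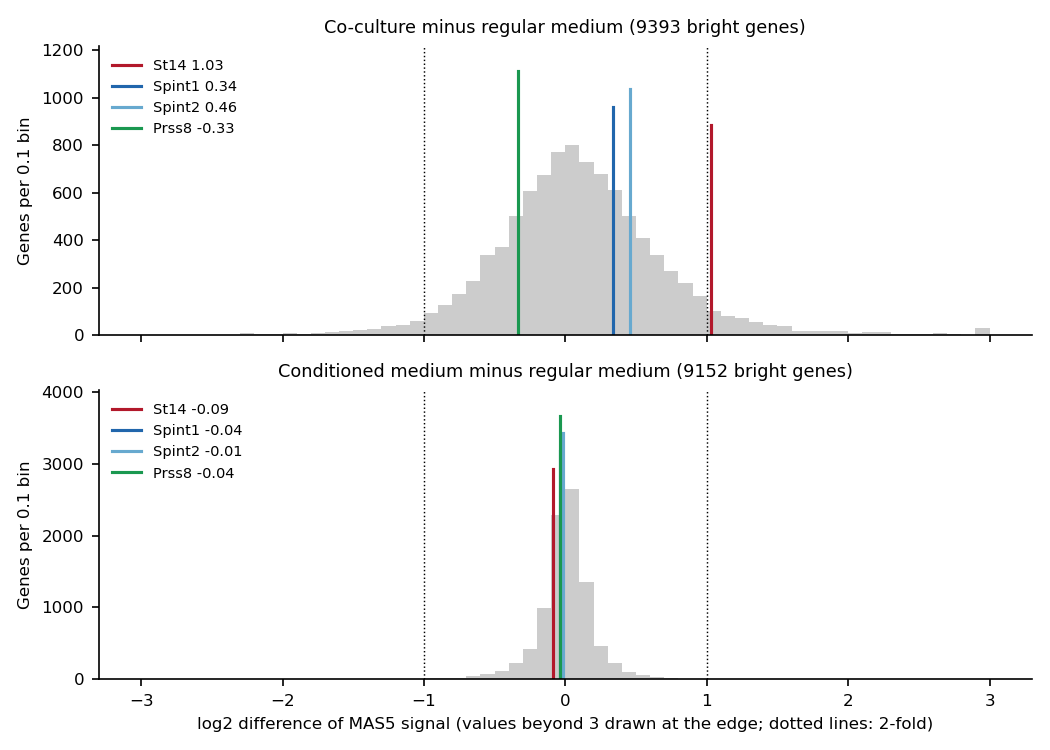
Histograms of the log2 difference of MAS5 signal over all bright genes, for co-culture minus regular medium (9393 genes) and conditioned medium minus regular medium (9152 genes), with a vertical line at the value of each member (line heights carry no value). St14 lies at 1.03 in the upper panel, just past the dotted 2-fold line, and all members lie between -0.09 and -0.01 in the lower panel, where the lines of Spint1 and Prss8 coincide at -0.04.

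As a scale for the scatter of single probe sets, pairs of bright probe sets of the same gene were compared. Over 11350 pairs the log2 differences between co-culture and regular medium disagreed by a median of 0.35, and by up to 1.34 in 95% of pairs. Between conditioned medium and regular medium the median disagreement was 0.15. The 2 probe sets of Spint2 disagreed by 0.24 and 0.07 in these comparisons, less than the median pair. The differences of Spint1 and Prss8 between co-culture and regular medium, 0.34 and -0.33, were smaller in size than the median disagreement of 0.35, and that of St14, 1.03, was larger than it but within the range that holds 95% of pairs. This scatter contains differences between transcript forms and no variation between cultures. St14, Spint1 and Prss8 have 1 probe set each and so have no second reading. Among the 3285 bright genes with 1 probe set, 6.15% were higher and 3.17% lower in co-culture.

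The protease and inhibitor transcripts differed by unequal amounts. The log2 difference of St14 between co-culture and regular medium exceeded that of Spint1 by 0.69, a 1.61-fold shift, and that of Spint2 by 0.57 with the brighter probe set and 0.81 with the other. Against conditioned medium the corresponding values were 0.74, 0.65 and 0.95. These are differences of changes and not ratios of the amounts of protease and inhibitor, because signals of different probe sets are not on 1 scale.

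For Prss8 the shift ran the other way. Its log2 difference between co-culture and regular medium lay below those of the inhibitors, with a shift of -0.67 against Spint1. Against Spint2 the shift was -0.79 with the brighter probe set and -0.55 with the other. The proteases themselves, St14 and Prss8, were 1.36 apart on the log2 scale. The inhibitors Spint1 and Spint2 lay within 0.12 of each other. In conditioned medium against regular medium the shifts of St14 were -0.05 against Spint1 and -0.08 and -0.15 against the probe sets of Spint2. Those of Prss8 were -0.0032 against Spint1 and -0.03 and -0.10 against the probe sets of Spint2. Whether any of these shifts exceeds the variation between cultures was not tested, because each condition had 1 array.

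Promoter sequence was matched by symbol for 2 of the 4 members, Spint1 and Spint2, in RefSeq's table for mouse build GRCm38.p6, and is shown because both inhibitor transcripts had their highest signal in co-culture. The stretches printed end at the outermost annotated start of each gene. That of Spint1 covers chr2:119237110-119237359 on the plus strand, 250 bases with a GC content of 72.8%, and that of Spint2 covers chr7:29282060-29282227 on the minus strand, 168 bases with 64.3%. Over all 32851 promoter windows in the table, 250 bases before and 50 after the start, the median GC content was 52.7%. No letters are in capitals here because none of the motifs searched fell in these stretches.
Spint1: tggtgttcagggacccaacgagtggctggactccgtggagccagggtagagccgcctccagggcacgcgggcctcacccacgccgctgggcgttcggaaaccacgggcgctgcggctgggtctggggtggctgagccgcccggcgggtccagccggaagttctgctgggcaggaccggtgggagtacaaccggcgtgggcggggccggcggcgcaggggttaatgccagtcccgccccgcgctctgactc
Spint2: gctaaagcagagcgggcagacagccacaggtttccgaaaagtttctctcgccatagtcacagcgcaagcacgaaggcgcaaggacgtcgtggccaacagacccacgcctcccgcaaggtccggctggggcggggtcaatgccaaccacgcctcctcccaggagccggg

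The table's start for Spint2 lies 82 bases inside the outermost start. The window before it held CACCTG, the E-box bound by the Zeb and Snail repressors of epithelial genes, 3 times on the opposite strand. The matches start 74, 55 and 9 bases before the table's start. All 3 therefore lie downstream of the outermost annotated start. The first 2 matches lie in chr7:29282027-29282051 on the minus strand, shown with the matches in capitals.
Spint2 E-boxes: CAGGTGcaggccgcagagcCAGGTG
At least 1 match was present in 20.2% of all windows of the same length and at least 3 in 0.365%. The window of Spint1 held none. Neither window held AACCNGTT (a grainyhead-like site), GAAANNGAA (the core of the interferon-stimulated response element) or TTCNNNGAA (a STAT site), which were present in 2.09%, 8.56% and 8.30% of windows. Both strands were searched, and no motif overlapped another in these windows.

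Among factors that bind such E-boxes, Zeb2 had signals of 482.4 in co-culture, 361.2 in conditioned medium and 359.4 in regular medium, but its 3 other bright probe sets had log2 differences between co-culture and regular medium from -0.10 to 0.81. Snai1 had 151.5, 224.8 and 197.5, and Zeb1 and Snai2 were not bright on any array. A match is a set of letters only, and whether any factor binds there was not tested.

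The further genes of the pathway were taken as lists. Of 19 other type II transmembrane serine proteases, the family of matriptase, 14 had a probe set and Tmprss11e alone was bright, with 3171.6 in co-culture, 2892.7 in conditioned medium and 2937.8 in regular medium, a log2 difference of 0.11 between co-culture and regular medium. Of 10 further membrane-linked or tryptase-like proteases, 9 had a probe set and Prss22 alone was bright. Prss22, a tryptase of epithelia, had 437.4, 498.0 and 562.7 in the same order of arrays, with a log2 difference of -0.36. Neither gene met the 2-fold rule, and the other members, including Hpn (hepsin), Tmprss2 and Tmprss4, stayed below 149.3 on each array.

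Among 17 other proteins with Kunitz domains, 13 had a probe set and 3 were bright, none of them at least 2-fold apart. App, the amyloid precursor protein whose longer forms carry a Kunitz domain, had 7956.7 in co-culture, 4803.1 in conditioned medium and 4621.4 in regular medium, 1.72-fold higher in co-culture than in regular medium. Its log2 difference was 0.78, and that of its other bright probe set was 0.55. Col7a1, a collagen of the basement membrane, and Aplp2, a relative of App, had differences of 0.28 and 0.24, while the 4 other bright probe sets of Aplp2 ranged from -1.22 to 0.57.

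The serpins and further serine protease inhibitors differed in both directions. Of 13 with a probe set out of 16 listed, 5 were bright. Of these, 1 was higher and 1 lower in co-culture than in regular medium, beside 5.81% and 2.76% of all bright genes. The list median was -0.39 beside 0.07 for all bright genes. This median depends on the list, and over all 6 bright genes with a serpin symbol, gathered after the values were seen, it was 0.63. Serpinb9, an inhibitor of granzyme B, had 888.6 in co-culture, 290.5 in conditioned medium and 282.8 in regular medium, 3.14-fold higher in co-culture than in regular medium. Serpinb5 (maspin), a serpin of mammary epithelium, had 305.0, 680.0 and 612.9 and was 2.01-fold lower, and the log2 differences of its 3 other bright probe sets ran from -1.89 to -0.96. Slpi, the secretory leukocyte peptidase inhibitor, and Serpinb6a had differences of -0.51 and -0.39.

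Substrates, receptors and partners of the proteases were mixed. Of 22 listed, 20 had a probe set and 9 were bright, with a median log2 difference of 0.14 between co-culture and regular medium. Of the bright genes 1 was higher and 1 lower, beside 5.81% and 2.76% of all bright genes. Pdgfc, a growth factor activated by proteolysis, had 854.3 in co-culture, 172.6 in conditioned medium and 196.6 in regular medium, 4.35-fold higher, and another bright probe set of this gene gave 2.30 on the log2 scale. Plaur, the urokinase receptor, had 890.9, 1903.5 and 2196.5 and was 2.47-fold lower. Plau, the urokinase whose precursor matriptase activates, had 357.2, 487.7 and 513.7, a difference of -0.52, with -0.70 for its other bright probe set. The desmosomal cadherin Dsg2 had a difference of 0.84.

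Some partners closest to matriptase were chosen after their values were seen, and none of the bright ones was 2-fold apart with the probe set used. Cdcp1, a surface protein cleaved by matriptase, had 4242.9 in co-culture, 4063.2 in conditioned medium and 3862.2 in regular medium, a difference of 0.14. Epcam and Cldn7, partners at cell contacts whose loss from the cell is limited by HAI-1 and HAI-2 in gut epithelium, had differences of 0.09 and 0.38. Met, the receptor for hepatocyte growth factor, had -0.16, but its other bright probe set had -1.42, so the size of its difference depends on the probe set. Hgf, its ligand, Mst1r, the receptor of the related ligand Mst1, and the sodium channel subunits Scnn1a, Scnn1b and Scnn1g, known for activation through prostasin, did not reach 149.3 on any array.

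The list of epithelial transcription and splicing factors also holds the repressors Zeb1, Zeb2, Snai1 and Snai2 and the mesenchymal factor Twist1, so it is no list of epithelial factors alone. All 22 had a probe set and 13 were bright, among them Zeb2, Snai1 and Twist1. In co-culture 2 were higher and none lower, beside 5.81% and 2.76% of all bright genes. The list median was 0.42, the value of Zeb2, beside 0.07 over all bright genes. Klf4, a factor of epithelial differentiation, had 870.3 in co-culture, 316.2 in conditioned medium and 343.7 in regular medium, 2.53-fold higher than in regular medium, and another bright probe set gave a difference of 1.39. Klf5, a factor of proliferating epithelium, had 4048.3, 1802.5 and 2021.1, 2.00-fold higher, but 0.31 with its other bright probe set. Twist1, a mesenchymal factor, and Esrp1, an epithelial splicing factor, had differences of 0.76 and 0.48. Grhl2, a grainyhead-like factor of epithelia, named after its values were seen, had 0.12, and its other bright probe set had -0.62.

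Genes of shedding and trafficking, among them the sheddases and convertases that process surface proteins, were all below 2-fold. Of 11 listed, 10 had a probe set and 8 were bright, with a median of 0.24. The convertase Furin had a difference of 0.52, the small GTPase Rab25 0.47, and filamin Flna, which binds the cytoplasmic part of matriptase, 0.42. The sheddase Adam10 had 0.29, while its other bright probe sets had -0.94 and -0.56.

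**Figure D3:**
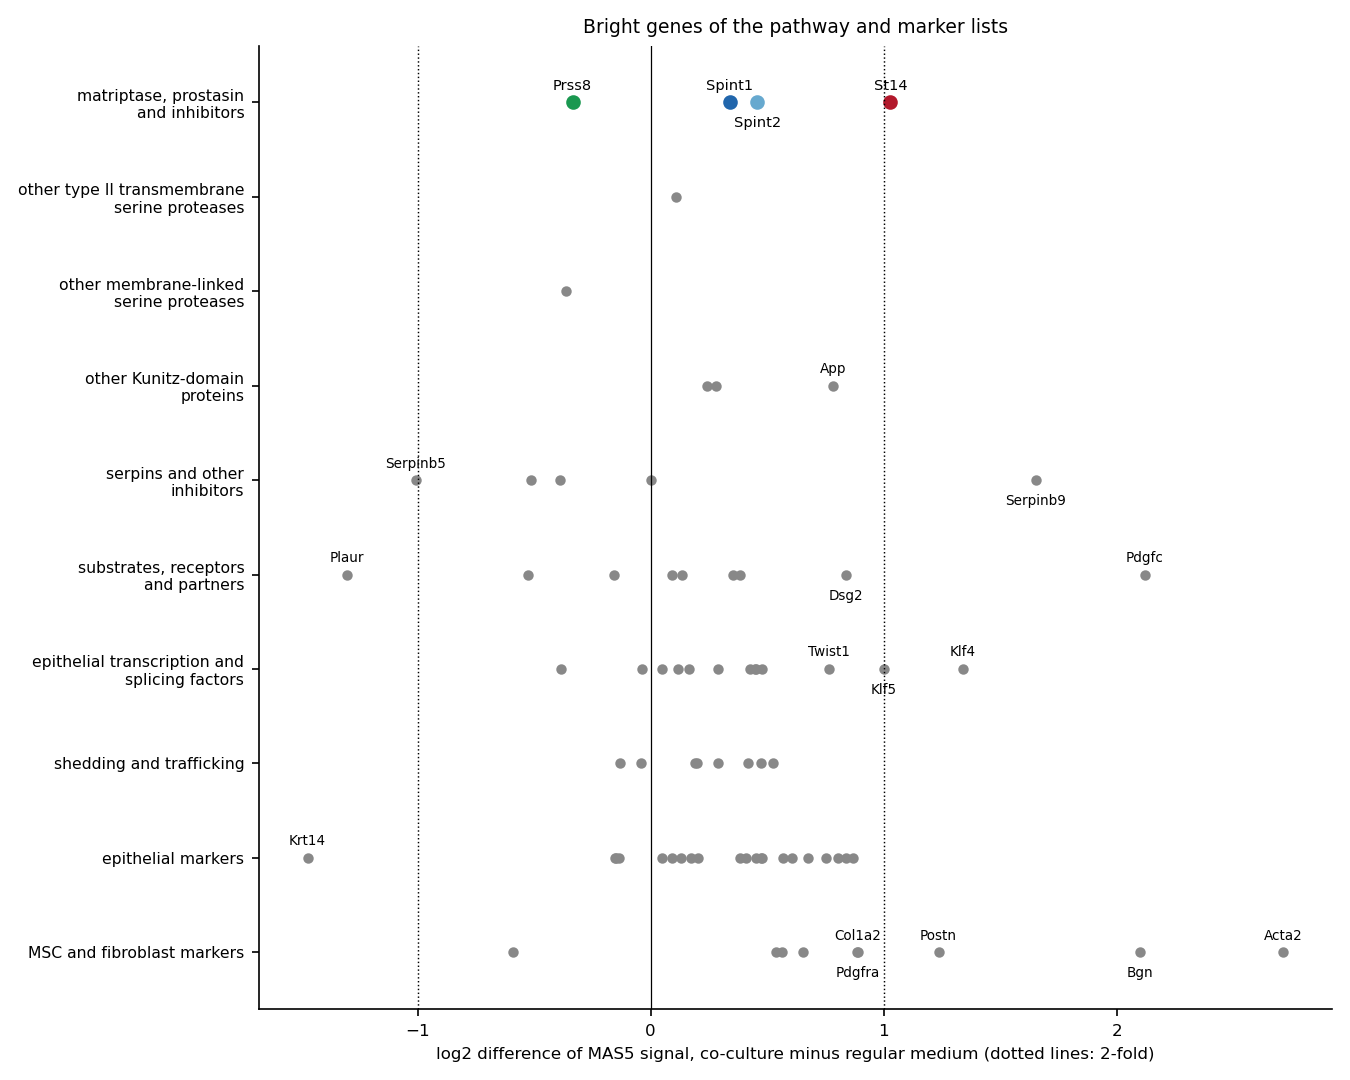
Log2 difference of MAS5 signal between co-culture and regular medium, on a linear axis, with the 4 members in the top row. The other rows hold each bright gene of the pathway lists and of the epithelial and the MSC and fibroblast markers. Each point is 1 gene with its brightest probe set. Macrophage, leukocyte and endothelial markers are not drawn. St14 lies just right of the dotted 2-fold line with Klf5 at 1.00, and Pdgfc lies farthest right among the pathway lists at 2.12 and Plaur farthest left at -1.30. The point of Bgn is a lower bound, and the signal of Acta2 in regular medium was equal to the floor.

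In conditioned medium no bright gene of these pathway lists was 2-fold apart from regular medium, beside 0.415% of all bright genes. The list medians there ran from -0.18 for the single bright tryptase-like protease to 0.05 for shedding and trafficking. Against conditioned medium, co-culture had the same 6 pathway genes counted, Serpinb9, Pdgfc, Klf4 and Klf5 as higher and Serpinb5 and Plaur as lower. Of all bright genes 5.83% were higher and 2.6% lower there. Both co-culture comparisons share the co-culture array.

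Some markers of MSCs and fibroblasts also differed on the co-culture array. Of 11 macrophage and leukocyte markers 3 were bright in co-culture or regular medium, with log2 differences from -0.48 to 0.44. Of 6 endothelial markers 1 was bright, Egfl7, with a difference of 0.01. None of these was counted as higher or lower, beside 5.81% and 2.76% of all bright genes. Of 20 MSC and fibroblast markers 19 had a probe set and 9 were bright in co-culture or regular medium. Of these, 3 were higher and none lower, beside 5.81% and 2.76% of all bright genes. The median log2 difference of these bright markers was 0.89, beside 0.07 for all bright genes. The summed signal of the 19 markers was 11751 in co-culture, 7640 in conditioned medium and 7263 in regular medium. Most of it came from Vcam1, Nt5e, Postn and Eng, which were also bright in the other conditions. For Vcam1 and Nt5e the probe sets used had log2 differences of 0.54 and 0.56 between co-culture and regular medium. Their other bright probe sets were negative, from -0.40 to -0.21 for Vcam1 and -0.72 for Nt5e. The other bright probe set of Eng had 0.53, and Postn had no other. The 3 higher genes were Postn, Bgn and Acta2. Postn was 2.35-fold above regular medium, with 1802.6 against 765.6. Bgn was at least 4.28-fold higher in co-culture, with 181.5, since its signal in regular medium was under the floor. Acta2 was 6.56-fold higher in co-culture, with 278.3, and its signal in regular medium was equal to the floor. Acta2 was also 3.70-fold higher in conditioned medium than in regular medium, with 157.0 against 42.4. It was the only one of these markers counted there, beside 0.109% of all bright genes counted as higher. Col1a2 and Pdgfra had 188.2 and 187.5 in co-culture and 101.8 and 101.3 in regular medium, a log2 difference of 0.89 for each. Col6a2 was the only bright marker of this list that went the other way. It had 126.9 in co-culture, 147.5 in conditioned medium and 191.1 in regular medium, a log2 difference of -0.59 between co-culture and regular medium. The other markers of this list with a probe set were not bright. Among them Col1a1 and Col3a1 had 41.9 and 45.7 in co-culture. Lum, Dcn and Thy1 had 43.8, 35.2 and 6.7 there, near or below the floor of 42.4. The epithelial markers summed to 119256 in co-culture, 96170 in conditioned medium and 93440 in regular medium, with a median difference of 0.41 between co-culture and regular medium. None of the 21 bright epithelial markers was higher and 1 was lower, beside 5.81% and 2.76% of all bright genes. The lower one was the basal keratin Krt14, with 439.1 in co-culture, 1263.4 in conditioned medium and 1217.5 in regular medium. It was 2.77-fold lower in co-culture than in regular medium. The part of these markers in the differences of St14, Spint1 and Spint2 was not tested. In these bulk samples a change in the mix of cells and a change in the RNA of each cell cannot be told apart.

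The genes whose pattern over the 3 arrays was most like that of St14, by the Euclidean distance over the log2 differences of co-culture and of conditioned medium from regular medium, were Btbd19, Zfp703, Mars2, Naaa and Trpm6, at distances of 0.02, 0.02, 0.02, 0.03 and 0.03. This ranking, like those for the other members, left out genes with Gm, Rik, LOC or clone names, which the counts below include. Zfp703, a zinc finger protein, had 863.3 in co-culture, 394.6 in conditioned medium and 417.6 in regular medium. Of 9412 genes compared, 52 lay within a distance of 0.1 of St14. For Spint1, Spint2 and Prss8, whose differences were smaller, 462, 390 and 456 genes lay within 0.1, with Ptpn12, Cdv3 and Ggct the nearest. The likeness rests on 3 arrays.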

How the data were processed

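The authors deposited MAS5 intensity values on a linear scale, 1 per probe set, for 3 arrays of 45037 probe sets. The submitters' processing notes name MAS5, and neither the version nor the scaling target of MAS5 is given in the sources used here. The method scales each array to a common level, and the 2%-trimmed means were 498.0 in co-culture, 497.7 in conditioned medium and 497.8 in regular medium, so no scaling was added. Biotin-labelled cRNA was hybridised, per the labels' protocols.

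Of the probe sets 34945 had 1 gene symbol, 932 several and 9160 none, by a platform annotation that can be old. For 34741 of those with 1 symbol the current RefSeq symbol was taken by gene ID, whether or not it differed. Signals under 42.4, the pooled 40th percentile, were set to that floor before log2, and no member was at it. The limit of 149.3 is the pooled 60th percentile. No test was run because each condition had 1 array, which limits the precision. The call rule was tested on simulated data with less noise than the scatter of single probe sets and with no planted change of 2-fold. That check therefore does not bear on calls near the limit, such as that of St14. Alternatives covered scaling, floor, fold, brightness and the choice of probe set.

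The members, the gene lists and the rules were chosen with earlier results of these data known. Named genes were the members, every pathway gene called and up to 4 bright genes of each list with the largest differences between co-culture and regular medium. Genes said to be chosen with their values known, the factors named beside the E-boxes, the genes like each member and the marker genes fall outside this rule or follow their own. Computation used Python 3.11.15, NumPy 2.4.6 and pandas 2.3.3.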

Additional observations from a re-analysis of the deposited data

How the results depend on the processing

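The 72 log2 differences of members recomputed with other scalings, floors and probe set choices all moved by less than 1 probe-set scatter. So did 72 values of the protease and inhibitor shifts, added after the data were seen. This scatter is 0.40 on the log2 scale between co-culture and regular medium and so a wide allowance. Many of these values could not move. All member signals lay above each floor used, so the floors changed none of them. St14, Spint1 and Prss8 have 1 probe set each, so the choice of probe set changed nothing for them. Scaling to the same median cancels in the shifts. The count of values that stayed within the scatter is therefore no evidence of stability. St14 between co-culture and regular medium ranged from 1.03 to 1.17 and was called in all of these alternatives, but not with a 3-fold rule. Spint1 ranged from 0.31 to 0.48, Spint2 from 0.22 to 0.60 and Prss8 from -0.33 to -0.20. Scaling the arrays to the same median moved the median of bright genes to 0.21 in co-culture and 0.17 in conditioned medium, against regular medium, and turned the small conditioned-medium differences of all members positive, that of St14 to 0.07. The counts of genes called moved more. A 1.5-fold rule gave 2512 genes for co-culture against regular medium, 203 for conditioned medium against regular medium and 2509 for co-culture against conditioned medium, and a 3-fold rule gave 222, 17 and 233, in place of 805, 38 and 788. A brightness limit at the 80th percentile gave 435, 2 and 423. For conditioned medium against regular medium a floor at the 60th percentile gave 3 genes, the median over probe sets 74 and no brightness filter 259. The share of calls that were higher in co-culture than in regular medium was 67.8%, against 82.7% after scaling to the same median and 51.3% with the median over probe sets, and against conditioned medium it was 69.2% and, with the median over probe sets, 52.7%. For conditioned medium against regular medium it was 26.3%, 37.5% with quantile normalization, 58.1% with the same median and 37.8% with the median over probe sets. The cause of these moves was not tested. No paired analysis was possible because each condition had 1 array.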

Other observations

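Other families of proteases and inhibitors were gathered by symbol after the values were seen, and their counts are to be read beside the 8.57% of all bright genes that were at least 2-fold apart between co-culture and regular medium. Of 10 bright cathepsins, lysosomal proteases, 1 was higher and none lower. Ctso had 380.1 in co-culture, 159.0 in conditioned medium and 173.5 in regular medium, 2.19-fold higher, and Ctsd, cathepsin D, had 2902.8, 1564.5 and 1508.7, 1.92-fold higher and short of the limit. Of 8 bright disintegrin metalloproteinases 1 was lower, Adam19, with 277.3, 582.9 and 606.8, 2.19-fold lower. Of 21 kallikrein-related peptidases with a probe set, Klk1 and Klk10 were bright, with log2 differences of 0.12 and -0.10. Mmp14, a membrane-bound metalloproteinase, had 3102.0, 2212.3 and 2158.3, a difference of 0.52.

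The choice of probe set mattered for the co-culture array. In 4228 genes with several bright probe sets, the brightest had a higher log2 difference between co-culture and regular medium than the median of the others in 62.0%, by a median of 0.14. Between conditioned medium and regular medium this was 52.7% and 0.01. In the pathway lists Aplp2, Lamb1, Grhl2, Tfap2a, Zeb2 and Adam10 each had a positive difference with the probe set used and a negative one with another bright probe set. Spint2 followed the same order, with 0.46 for the brighter and 0.22 for the other probe set, and St14, Spint1 and Prss8 have 1 probe set each.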
